A study of Mus musculus with 9 samples.

Results

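The genes described here are 10 regulators of bile acid, xenobiotic, vitamin D and lipid responses: the nuclear receptors Nr1h4 (FXR), Nr1i2 (PXR), Nr1i3 (CAR), Vdr, Rxra, Hnf4a, Hnf4g, Nr5a2 (LRH-1) and Nr0b2 (SHP), and the hormone gene Fgf15. Members were taken as every probe set annotated to 1 of these symbols, which gave 22 of the 34945 probe sets that carry a single symbol. Of these 22 probe sets 19 passed a filter on dim signals, and they covered 9 of the 10 genes, the exception being Fgf15. Organoids of mouse small intestine are grown from crypts as closed epithelial structures, and their RNA was measured on the Affymetrix Mouse Genome 430 2.0 array. The 9 arrays form 3 groups of 3, named by the labels no treatment, Tgfbeta inhibitor at 20 uM (an inhibitor of TgfbR1/2) and Tgfbeta 1 ligand at 0.04 ng/mL. Cultures were kept for 6 days, and treatment ran on from day 1. The labels name neither the inhibiting compound nor a vehicle, a mouse strain and age, or a segment of the intestine. They do not say whether the 3 arrays of a group stand for separate cultures, and each p-value thus measures spread between arrays that may be technical.

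Nuclear receptors are transcription factors that bind DNA through paired zinc fingers and, in most cases, change activity when a small lipid-soluble ligand enters their binding pocket. In ileal enterocytes bile acids activate FXR, which raises FGF15, a hormone that travels to the liver and lowers bile acid synthesis, and SHP, a receptor without a DNA-binding domain that represses other receptors. PXR, CAR and VDR act as dimers with RXR alpha and switch on enzymes and pumps that clear drugs, toxic bile acids and vitamin D. HNF4 alpha and HNF4 gamma bind DNA as dimers of HNF4 proteins and sustain the enterocyte programme, whereas LRH-1 binds as a monomer and is best known in intestinal crypts.

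Promoter windows were searched for 8 members, all except Hnf4g and Fgf15. Of these 8, Nr1h4 and, on its brightest probe set only, Nr5a2 changed under both treatments. Nr1i3 had the largest fall with the ligand, and a window of each of these genes is shown. Each window runs from 250 bases before to 50 bases after an annotated start (RefSeq, GRCm38.p6), is read 5′ to 3′ along the gene and has matches to the searched motifs in capitals. The Nr1h4 window, at a start inside the annotated span of the gene, lies on the minus strand at chr10:89506609-89506908, the Nr5a2 window on the minus strand at chr1:136960399-136960698 and the Nr1i3 window on the plus strand at chr1:171213720-171214019.
Nr1h4: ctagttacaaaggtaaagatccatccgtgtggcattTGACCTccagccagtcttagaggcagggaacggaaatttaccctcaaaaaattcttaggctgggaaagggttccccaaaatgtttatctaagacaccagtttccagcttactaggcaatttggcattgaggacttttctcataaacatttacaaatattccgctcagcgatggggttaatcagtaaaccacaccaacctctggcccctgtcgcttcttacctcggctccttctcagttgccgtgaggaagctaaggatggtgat
Nr5a2: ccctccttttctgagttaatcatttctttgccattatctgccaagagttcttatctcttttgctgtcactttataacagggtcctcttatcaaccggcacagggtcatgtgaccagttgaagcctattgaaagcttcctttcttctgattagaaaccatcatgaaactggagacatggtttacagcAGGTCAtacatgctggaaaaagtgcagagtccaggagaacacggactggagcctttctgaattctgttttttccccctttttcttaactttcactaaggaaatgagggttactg
Nr1i3: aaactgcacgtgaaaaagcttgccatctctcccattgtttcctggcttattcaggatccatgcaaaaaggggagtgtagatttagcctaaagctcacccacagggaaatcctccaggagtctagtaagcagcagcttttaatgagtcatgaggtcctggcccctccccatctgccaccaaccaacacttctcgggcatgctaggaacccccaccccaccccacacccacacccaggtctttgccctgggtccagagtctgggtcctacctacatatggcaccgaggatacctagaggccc
The hexamer AGGTCA, the core that nuclear receptors recognise, was searched on both strands, also within its repeats and longer forms. It occurred in the Nr1h4 window on the opposite strand at -214 to -209 from the start, and in the Nr5a2 window shown at -64 to -59. A second Nr5a2 window, at chr1:136953581-136953880, held no match. It occurs in 16.3% of 32851 promoters, and it occurred in 3 of 11 windows of 8 members, 1 of them a window of Rxra. The Nr1i3 window shown holds no capitals, since none of the motifs matched there. No member window held CAAAGTCCA (an HNF4 core, in 0.475% of all promoters), CAAGGTCA (an NR5A2 core that contains the hexamer, 1.56%), CAGACA (a Smad box, 21%) or GTCTAGAC (a palindromic Smad site, 0.213%). Repeats of the hexamer, AGGTCANTGACCT (0.00913%), AGGTCANAGGTCA (0.0396%), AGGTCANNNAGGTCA (0.00609%) and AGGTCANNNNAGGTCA (0.0152%), matched none of them either. These matches describe letters in a window only.

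With the inhibitor, Nr1h4 and Hnf4g rose, while Nr5a2, Nr0b2 and Vdr fell. With the ligand Nr1i3, Hnf4g, Nr1h4, Nr5a2 and Rxra fell and no member rose. Nr1h4 and Hnf4g changed in opposite directions under the 2 treatments, whereas Nr5a2 fell under both, on its brightest probe set only. The call of Vdr with the inhibitor was lost in 6 of 20 alternative ways of processing. The brightest probe set of Hnf4a, at signals of 6471 to 8236 across the 9 arrays, passed in no comparison. Changes are given on the scale of log2(signal + 16) as estimate ± SE from limma over all 12941 genes tested, with n = 3 arrays per group. A gene is called, and is said to have risen or fallen, where its Benjamini-Hochberg adjusted p is under 0.05. Both comparisons with untreated organoids share the 3 untreated arrays, so they are not independent of each other.

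For inhibitor against untreated 5 of 9 tested members were called, where 45.1% of all genes were, and 2 were higher and 3 lower, where 21.2% and 23.9% of all genes were. This share is close to the background. For ligand against untreated 5 of 9 were called, all lower, where 24.1% of all genes were called and 9.37% were called lower. For ligand against inhibitor 5 of 9 members were called, where 55.5% of all genes were, and 1 was higher and 4 lower, where 32.6% and 23.0% of all genes were. The median log2 change of the 9 tested members was -0.18 with the inhibitor, -0.42 with the ligand and -0.24 for ligand against inhibitor, beside -0.01, 0.05 and 0.07 for all genes tested. Signals of the 3 arrays of each group did not overlap between inhibitor and untreated in 6 of 9 members, where this held for 55.9% of all genes, and 3 of these 6 lay lower, as did 29.3% of all genes. Between ligand and untreated this held for 6 of 9 members, all lower, where 38.6% of all genes did not overlap and 14.5% lay lower. Between ligand and inhibitor it held for 7 of 9 members, beside 60.6% of all genes.

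**Figure D1:**
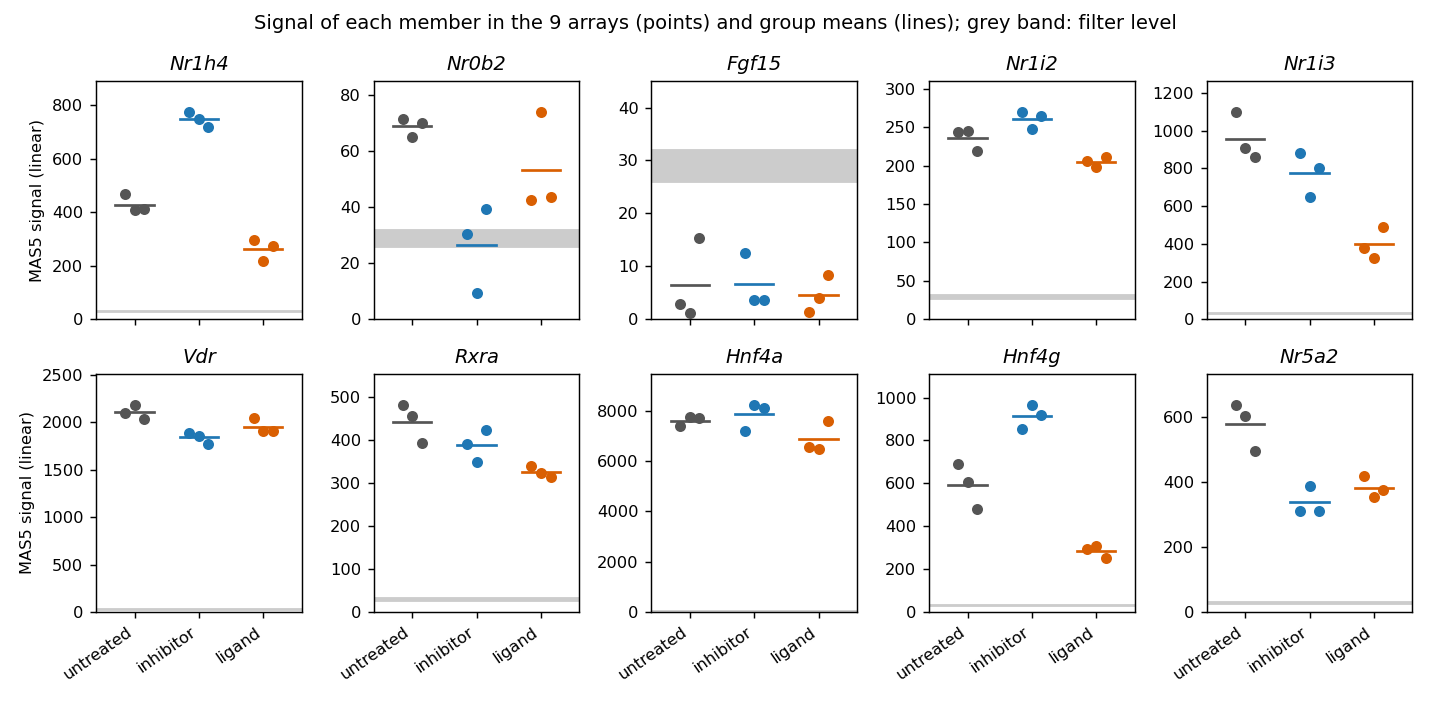
Signal of each member, on the brightest probe set, in each of the 9 arrays (points) with group means (lines). Each vertical axis is linear and starts at 0, and the grey band marks the filter level of 25.9 to 32. Nr1h4 and Hnf4g lie highest with the inhibitor and lowest with the ligand, and all Fgf15 points lie under the band.

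The scale of the arrays bears on these counts. Centring every array on its own median lowered all ligand values by 0.11 against untreated and by 0.16 against inhibitor. It turned the share of called genes that were higher from 61.2% to 36.4% for ligand against untreated, and from 58.6% to 41.8% for ligand against inhibitor. The members called for ligand against untreated still numbered 5 under that centring, all lower, and the 9 tested members had a median change of -0.53.

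Cell type markers were read on the same arrays. The counts of these and later lists stand beside the shares of all genes called. With the inhibitor 21.2% of all genes were called higher and 23.9% lower, and with the ligand 14.8% and 9.37%. For ligand against inhibitor the shares were 32.6% and 23.0%. Epithelial markers such as Epcam, an adhesion molecule (signal 11220 ± 454, 10850 ± 182 and 11490 ± 1200, mean ± SD in untreated, inhibitor and ligand arrays), were all above the filter. Of 10 tested, 1 rose and 2 fell with the inhibitor, namely Vil1 (0.51 ± 0.07), Cdx1 (-0.37 ± 0.10) and Cdx2 (-0.22 ± 0.08). With the ligand 1 rose, Krt18 (0.35 ± 0.11), and 0 fell. For ligand against inhibitor 3 were higher and 1 lower. Of 24 tested markers of absorptive enterocytes 15 rose and 1 fell with the inhibitor, and 1 rose and 16 fell with the ligand. Their summed signal was 102700 to 115500 in untreated, 128400 to 149200 in inhibitor and 74990 to 85500 in ligand arrays. Of 17 crypt stem cell and cell cycle markers 16 fell with the inhibitor and 8 rose with the ligand, with summed signals of 59500 to 67250, 30170 to 33450 and 71720 to 84980. Of 18 secretory cell markers 2 rose and 4 fell with the inhibitor, 8 rose and 1 fell with the ligand, and 10 were higher and 1 lower for ligand against inhibitor. Their summed signals were 50690 to 61730, 47150 to 53630 and 60760 to 75050, and Dclk1, a tuft cell marker, fell with the inhibitor (-1.17 ± 0.15) and rose with the ligand (1.11 ± 0.15). The stem cell receptor gene Lgr5 fell with the inhibitor (-0.68 ± 0.08) and rose with the ligand (0.74 ± 0.08), while Alpi, intestinal alkaline phosphatase, passed in neither (-0.13 ± 0.10, adjusted p 0.29, and -0.28 ± 0.10, adjusted p 0.0571). The order of the 3 groups in the summed signal of enterocyte markers was thus that of Nr1h4 and Hnf4g. Single markers departed from it, and Lct, lactase, rose with the ligand (0.92 ± 0.09). The part of these markers in the members' changes was not tested, and in bulk RNA fewer cells of a type and less RNA per cell cannot be told apart.

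Among markers of cells outside the intestinal epithelium, most fibroblast, leukocyte and endothelial genes were dim. Of 12 fibroblast, 11 leukocyte and 8 endothelial genes on the array, 8, 6 and 5 lay under the filter, among them Dcn, Col1a1, Ptprc and Pecam1. Some of those tested were called. With the inhibitor Vim (-1.11 ± 0.14), Lyz2 (-0.69 ± 0.14) and Esam (-0.38 ± 0.13) fell, while Csf1r (0.92 ± 0.19) and Cd68 (0.66 ± 0.15) rose. With the ligand Lyz2 (0.41 ± 0.14) and Esam (0.99 ± 0.13) rose. In untreated, inhibitor and ligand arrays the summed signal of the fibroblast genes was 409.4 to 447, 289.4 to 344 and 444 to 515, and that of the leukocyte genes 1398 to 1590.0, 1081 to 1224 and 1577 to 2418. The endothelial sum was 259.6 to 322, 238 to 298 and 427 to 514. Of 8 hepatocyte genes 4 lay under the filter, and the albumin gene Alb was at 63.7 ± 12.4 in untreated arrays. Their sum, of 12860 to 15610, 6862 to 8144 and 13720 to 18590, was nearly all Cps1, a urea cycle enzyme gene that intestinal epithelium also expresses. The part of these cells in the members' changes was not tested.

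Genes known to respond to TGF-beta were read as a check of the treatments. Of 7 tested, 5 rose and 1 fell with the ligand (median 1.27), and 2 rose and 3 fell with the inhibitor (median 0.01). Pmepa1, a feedback inhibitor, rose with the ligand (1.55 ± 0.11) and fell with the inhibitor (-1.14 ± 0.11), as did Ccn1, a matrix protein gene (1.68 ± 0.09 and -0.42 ± 0.09). Skil, a feedback repressor, rose with the ligand (1.27 ± 0.08) and had a change of 0.01 ± 0.08 with the inhibitor (adjusted p 0.949). Smad7, an inhibitory Smad, fell with the inhibitor (-0.39 ± 0.15, adjusted p 0.0462) and did not pass with the ligand (0.22 ± 0.15, adjusted p 0.331). Ccn2, a relative of Ccn1, rose with both the ligand (2.24 ± 0.20) and the inhibitor (0.94 ± 0.20, adjusted p 0.00206). Cdkn2b, a cell cycle inhibitor that TGF-beta is known to induce, went the other way, with a rise with the inhibitor (0.85 ± 0.09) and a fall with the ligand (-0.62 ± 0.09).

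As a sign of RNA quality, the log2 ratio of the 3 prime to the 5 prime beta-actin control was 0.41 ± 0.04 (SD) in untreated, 0.21 ± 0.03 in inhibitor and 0.47 ± 0.10 in ligand arrays. The same ratio for Gapdh was -0.26 ± 0.01, -0.28 ± 0.01 and -0.27 ± 0.02. The part of this ratio in the members' changes was not tested.

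Nr1h4, which encodes the bile acid receptor FXR, has 1 probe set. Its signals were 466, 409 and 410.2 in the 3 untreated arrays, 774, 748.5 and 719.5 in the inhibitor arrays and 298, 217 and 275 in the ligand arrays. No array of 1 group overlapped with another group, and the order was inhibitor, untreated, ligand. Nr1h4 rose 1.72-fold with the inhibitor (0.78 ± 0.11, adjusted p 4.61e-05) and fell 1.60-fold with the ligand (-0.68 ± 0.11, adjusted p 0.000434). Between ligand and inhibitor the difference was -1.46 ± 0.11 (adjusted p 8.93e-08), or 2.75-fold.

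Nr0b2, the gene of the repressor SHP, is known as a target of FXR. It gave signals of 71.7, 65.0 and 70.1 in untreated arrays, 30.6, 9.58 and 39.5 in inhibitor arrays and 42.6, 74.0 and 43.7 in ligand arrays. Every inhibitor array lay under every untreated array, and the inhibitor mean of 26.6 ± 15.4 was at the filter level. Its change with the inhibitor was -1.07 ± 0.26 (adjusted p 0.00475), opposite in sign to that of Nr1h4. Values this low depend on the offset, and the change was -1.55 with an offset of 1 and -0.57 with an offset of 64, all called. With the ligand the change was -0.32 ± 0.26 (adjusted p 0.427), and the groups overlapped. The ligand arrays lay 0.75 ± 0.26 above the inhibitor arrays (adjusted p 0.0273). Without inhibitor replicate 2, the lowest array, that difference was 0.42 (adjusted p 0.129), and without ligand replicate 2 it was 0.55 (0.122). It also missed the threshold with median centring (0.0502), quantile normalization (0.0534) and no filter (0.0501), in a range of 0.00921 to 0.129.

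Fgf15, the ileal hormone gene, lay under the filter level in all 9 arrays, with signals of 2.85, 1.14 and 15.3 in untreated, 12.6, 3.62 and 3.59 in inhibitor and 1.30, 4.02 and 8.28 in ligand arrays. The groups overlapped and the gene was not tested in the main fit. Without the filter its change was 0.04 ± 0.24 with the inhibitor (adjusted p 0.933) and -0.09 ± 0.24 with the ligand (adjusted p 0.87). Ligand against inhibitor gave -0.13 ± 0.24 (adjusted p 0.737). At this signal neither a level nor a difference was detectable. Other genes known mainly from the ileum also missed the filter. Slc10a2, the apical bile acid transporter, had signals of 1.94, 1.69 and 3.38 in untreated, 36.4, 15.7 and 23.0 in inhibitor and 8.59, 16.1 and 4.28 in ligand arrays. Its inhibitor arrays all lay above its untreated arrays, and the highest of them was above the filter level. Fabp6, the cytosolic bile acid carrier, had means of 28.2 ± 5.96, 18.5 ± 5.25 and 15.8 ± 5.88, with a highest array of 35.1. Neither passed the filter on enough arrays, and neither was tested.

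Of 18 genes listed for FXR and enterohepatic bile acid handling 15 had a probe set named here, and 8 were tested. With the inhibitor 5 rose and 0 fell, with a list median of 0.65, where 21.2% and 23.9% of all genes did. With the ligand 2 rose and 4 fell, where 14.8% and 9.37% of all genes did. The ligand median of 0.03 became -0.08 under median centring and -0.01 under quantile normalization. The basolateral bile acid exporter is built from the products of Slc51a and Slc51b. Slc51b had signals of 209, 166 and 157 in untreated, 299, 279 and 244 in inhibitor and 71.2, 105 and 70.9 in ligand arrays. These groups did not overlap, and Slc51b rose by 0.59 ± 0.15 with the inhibitor (adjusted p 0.00561) and had a change of -0.98 ± 0.15 with the ligand (adjusted p 0.000383). Its partner Slc51a had a change of 0.09 ± 0.10 with the inhibitor (adjusted p 0.499) and fell with the ligand (-0.66 ± 0.10). Abcc2, an apical efflux pump, rose by 0.88 ± 0.11 with the inhibitor and fell with the ligand (-0.87 ± 0.11). Abcc3, a basolateral pump, rose by 0.70 ± 0.07 and fell with the ligand (-0.26 ± 0.07), a call that rests on a small change. Abcc4, another efflux pump, rose with both (0.87 ± 0.08 and 0.99 ± 0.08), as did Cyp27a1, a sterol 27-hydroxylase (1.53 ± 0.14 and 0.51 ± 0.14). Under quantile normalization and under median centring 1 gene of this list, not 2, was called higher with the ligand.

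The receptor for FGF15 pairs Fgfr4 with the co-receptor beta-Klotho (Klb). Fgfr4 had signals of 121, 99.5 and 150.0 in untreated, 108, 90.6 and 92.9 in inhibitor and 268, 293 and 307 in ligand arrays. All ligand arrays lay above the others, and Fgfr4 rose by 1.14 ± 0.14 with the ligand (adjusted p 5.25e-05), while its change with the inhibitor was -0.29 ± 0.14 (adjusted p 0.101). Klb had a change of 0.44 ± 0.18 in each comparison with untreated (adjusted p 0.0627 and 0.0929) at signals of 25.9 to 63.3. Of 5 tested genes of FGF15 signalling 2 fell with the inhibitor, Fgfr2 (-1.42 ± 0.11) and Fgfr3 (-1.01 ± 0.11), receptors that belong to other FGFs as well, and 2 rose with the ligand, Fgfr4 and Fgfr2 (1.35 ± 0.11).

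Nr1i2 encodes PXR, the sensor of drugs and of toxic bile acids, and has 2 probe sets, annotated with the same source sequence. The brighter probe set read 244, 245 and 218.5 in untreated, 269.5, 247 and 264.5 in inhibitor and 206, 198 and 212 in ligand arrays. The groups did not overlap, although the gaps were small, and the order was inhibitor, untreated, ligand. Neither step from untreated passed (0.14 ± 0.09, adjusted p 0.249, and -0.19 ± 0.09, adjusted p 0.163), with 95% intervals of -0.06 to 0.33 and -0.38 to 0.01. Ligand and inhibitor arrays differed by -0.32 ± 0.09 (adjusted p 0.00812). The dimmer probe set read 108, 104 and 120.0 in untreated, 145, 137 and 212 in inhibitor and 127, 135 and 118 in ligand arrays, and was called higher with the inhibitor (0.49 ± 0.15, adjusted p 0.0201). On this probe set the ligand value was 0.17 ± 0.15 (adjusted p 0.493), so the probe sets differed in sign for the ligand. With the mean of both probe sets the inhibitor change was 0.31 (adjusted p 0.0157), and with quantile normalization the ligand change was -0.29 (adjusted p 0.0383).

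Nr1i3 encodes CAR, a receptor active without an added ligand that controls overlapping genes. Its probe set read 1098, 907 and 861 in untreated, 880.1, 649 and 804 in inhibitor and 379.9, 327 and 490.4 in ligand arrays. The ligand arrays lay below all others, while inhibitor and untreated arrays overlapped. Nr1i3 fell 2.36-fold with the ligand (-1.24 ± 0.14, adjusted p 4.15e-05), and the inhibitor change was -0.29 ± 0.14 (adjusted p 0.111), with a 95% interval of -0.60 to 0.01. Ligand against inhibitor gave -0.94 ± 0.14 (adjusted p 7.75e-05).

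Genes known as targets of PXR and CAR were measured next to them. Of 17 tested, 15 rose and 0 fell with the inhibitor (median 0.92), and 0 rose and 16 fell with the ligand (median -0.62). Genes called higher with the inhibitor were 21.2% of all genes, and those called lower with the ligand 9.37%. Cyp3a11, a main drug-oxidising cytochrome, read 6921, 7300 and 5731 in untreated, 14690, 17450 and 15840 in inhibitor and 3312, 3926 and 3992 in ligand arrays. Its groups did not overlap, and the changes were 1.27 ± 0.11 and -0.82 ± 0.11. Cyp2c55 (1.75 ± 0.08 and -0.58 ± 0.08), Cyp3a13 (1.25 ± 0.07 and -0.59 ± 0.07) and Cyp2b10 (1.37 ± 0.09 and -0.61 ± 0.09), further cytochromes, showed the same order. So did the carboxylesterase Ces2a (1.78 ± 0.11 and -0.90 ± 0.11). Sult1d1, a sulfotransferase, fell with the ligand by 1.22 ± 0.09, and its ligand arrays lay further below the inhibitor arrays (-2.14 ± 0.09). Beside these, the brighter Nr1i2 probe set passed in neither comparison with untreated, and Nr1i3 passed with the ligand. Abcb1b, an efflux pump, passed in neither comparison with untreated (0.25, adjusted p 0.331, and -0.05, adjusted p 0.885). Cytochrome probe sets can share sequence between close family members, so values of single Cyp genes are uncertain to that extent.

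**Figure D2:**
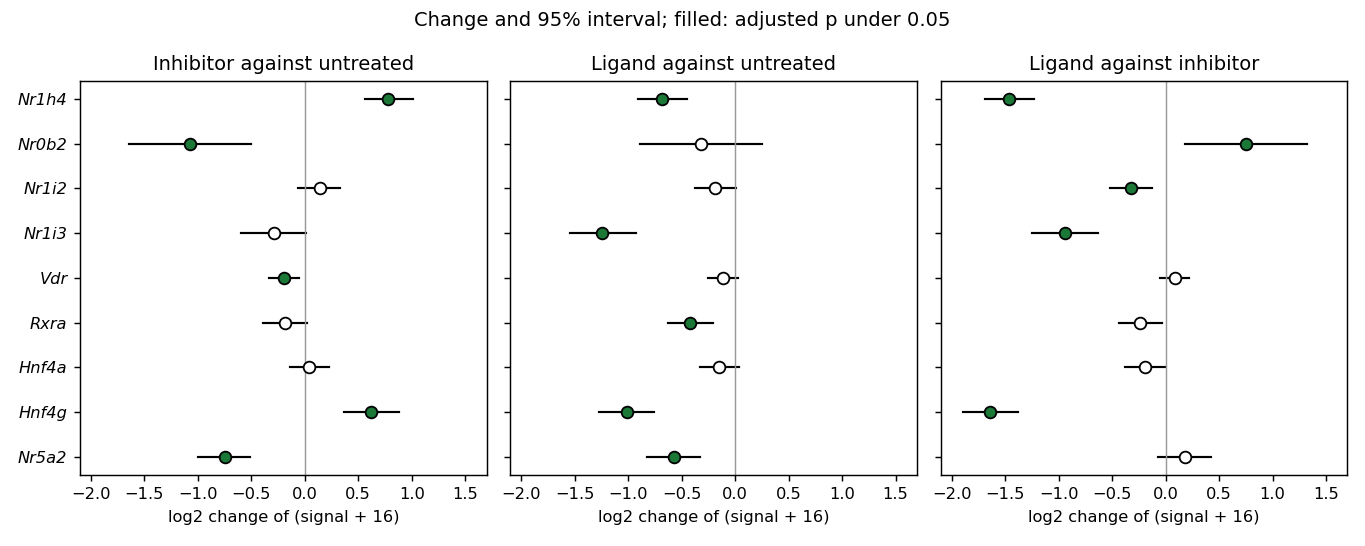
Change of each tested member on the log2(signal + 16) axis with its 95% interval, in 3 comparisons; filled points have an adjusted p under 0.05. Nr1h4 and Hnf4g lie right of 0 with the inhibitor and left of it with the ligand, and no member is filled right of 0 with the ligand.

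Vdr, the vitamin D receptor gene, has 2 probe sets, annotated with the same source sequence. The brighter read 2101, 2184 and 2033 in untreated, 1890.0, 1859 and 1770.0 in inhibitor and 2044, 1910.0 and 1908 in ligand arrays. All inhibitor arrays lay below all others, and the fall was 1.14-fold (-0.19 ± 0.06, adjusted p 0.0251). This call was lost without untreated replicate 1 (0.0568) or 2 (0.095), without inhibitor replicate 2 (0.0553) or 3 (0.0999), with the mean of both probe sets (0.0602) and with median centring (0.212), in a range of 0.00947 to 0.212. The dimmer probe set gave -0.12 ± 0.08 (adjusted p 0.265). With the ligand the brighter gave -0.11 ± 0.06 (adjusted p 0.258) with a 95% interval of -0.25 to 0.03, and the dimmer -0.23 ± 0.08 (adjusted p 0.071).

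Of 8 tested genes listed as vitamin D targets, 6 rose and 0 fell with the inhibitor (median 0.38), and 2 rose and 1 fell with the ligand (median 0.02, and -0.09 under median centring). Among all genes 21.2% rose with the inhibitor, and 14.8% rose and 9.37% fell with the ligand. S100g, the calcium carrier calbindin-D9k, rose in both (0.42 ± 0.11 and 0.56 ± 0.11), as did the phosphate transporter gene Slc34a2 (1.21 ± 0.10 and 0.77 ± 0.10). Slc30a10, a metal exporter, rose with the inhibitor (0.38 ± 0.08) and fell with the ligand (-0.28 ± 0.08). Cyp24a1, the vitamin D degrading enzyme and the usual readout of receptor activity, and Trpv6, a calcium channel, had means under the filter level in every group (12.5 ± 13.1, 15.4 ± 9.8 and 21.5 ± 4.08 for Cyp24a1) and were not tested.

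Rxra, the common dimer partner, has 3 probe sets, of which 1 lay under the filter on all arrays at 2.20 to 10.3. The brightest read 481, 454 and 391 in untreated, 389.6, 349 and 422 in inhibitor and 338.5, 323 and 314 in ligand arrays. The ligand arrays lay below all others, and the fall from untreated was 1.34-fold (-0.42 ± 0.10, adjusted p 0.00638). The inhibitor change was -0.18 ± 0.10 (adjusted p 0.14), with overlapping groups. It passed without untreated replicate 3 (-0.27, adjusted p 0.0484), and was 0.05 with the mean of the probe sets. The other probe set above the filter gave 0.28 ± 0.15 with the inhibitor (adjusted p 0.181) and -0.25 ± 0.15 with the ligand (adjusted p 0.309), so the probe sets differed in sign for the inhibitor. Ligand against inhibitor missed the threshold at -0.24 ± 0.10 (adjusted p 0.0518) and passed in 8 of 20 alternatives, in a range of 0.00528 to 0.195. Rxrb, the gene of a sister receptor, fell with the inhibitor (-0.65 ± 0.14, adjusted p 0.00169) and had -0.13 with the ligand (adjusted p 0.551).

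Hnf4a and Hnf4g are close relatives that recognise the same DNA. Hnf4g has 3 probe sets, and the brightest read 692, 605 and 481 in untreated, 854, 966 and 919 in inhibitor and 292, 308.5 and 249.9 in ligand arrays. Groups did not overlap on any of its 3 probe sets, with the order inhibitor, untreated, ligand on each. Its brightest probe set rose 1.54-fold with the inhibitor (0.62 ± 0.12, adjusted p 0.000737) and fell 2.02-fold with the ligand (-1.01 ± 0.12, adjusted p 4.57e-05). Between ligand and inhibitor the change was -1.64 ± 0.12 (adjusted p 9.29e-08), or 3.11-fold. The other probe sets gave 0.40 ± 0.12 and 0.52 ± 0.17 with the inhibitor (adjusted p 0.0199 and 0.0272) and -1.17 ± 0.12 and -0.71 ± 0.17 with the ligand (adjusted p 3.73e-05 and 0.0119).

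Hnf4a has 4 probe sets, all above the filter. The brightest read 7378, 7744 and 7699 in untreated, 7209, 8236 and 8122 in inhibitor and 6565, 6471 and 7603 in ligand arrays, and the groups overlapped. Its changes were 0.04 ± 0.09 with the inhibitor (adjusted p 0.713, 95% interval -0.14 to 0.23) and -0.15 ± 0.09 with the ligand (adjusted p 0.243, 95% interval -0.33 to 0.04). Over all 4 probe sets changes ran from -0.15 to 0.05 with the inhibitor and from -0.27 to -0.14 with the ligand, and none passed. On the brightest, ligand against untreated passed without ligand replicate 3 (-0.22, adjusted p 0.0497). Ligand against inhibitor gave -0.19 ± 0.09 (adjusted p 0.0735). It passed without ligand replicate 3 (0.00923) or inhibitor replicate 1 (0.0311), with median centring (-0.35, adjusted p 0.0276) and with quantile normalization (0.0282), in a range of 0.00923 to 0.22. Whether the changes of both genes differ from each other was not tested.

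**Figure D3:**
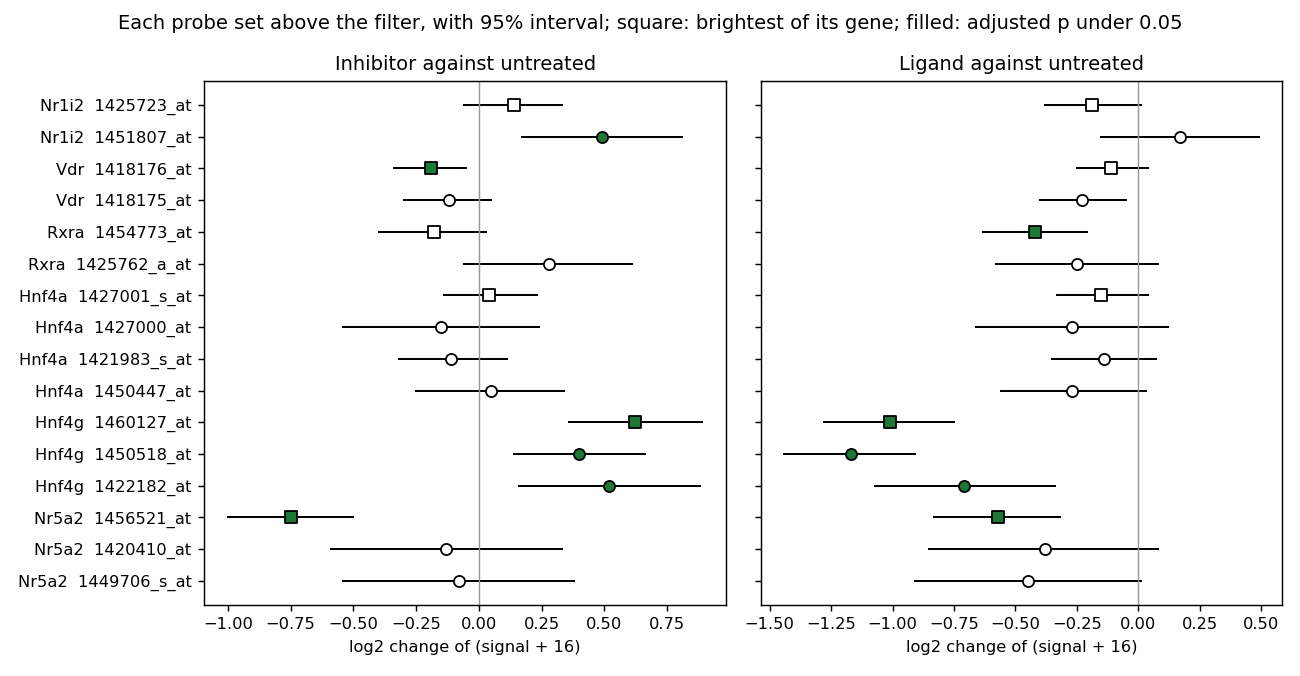
Change of each probe set above the filter, for the 6 members with several, on the log2(signal + 16) axis with 95% intervals; squares mark the brightest probe set of a gene and filled symbols an adjusted p under 0.05 over all probe sets. All 3 Hnf4g probe sets are filled on the same side, whereas for Nr5a2 only the brightest is filled.

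Genes known as HNF4 targets in enterocytes were read as a list. Of 20 tested, 13 rose and 0 fell with the inhibitor (median 0.51), and 0 rose and 11 fell with the ligand (median -0.44). Beside this, 21.2% of all genes rose with the inhibitor and 9.37% fell with the ligand. The list shares 6 genes with the enterocyte markers above. Apob, the scaffold of intestinal lipoproteins, rose by 1.16 ± 0.09 with the inhibitor and had -0.09 with the ligand (adjusted p 0.499). Mttp, which loads lipid onto it, rose by 0.72 ± 0.09 and fell with the ligand (-0.95 ± 0.09). Slc2a2, a basolateral sugar transporter, had 0.18 with the inhibitor (adjusted p 0.179) and fell with the ligand (-1.58 ± 0.10). The cholesterol transporter gene Npc1l1 fell with the ligand (-0.98 ± 0.10), and its ligand arrays lay further below the inhibitor arrays (-1.7 ± 0.10). Apoa4 rose with the inhibitor (0.32 ± 0.12, adjusted p 0.0441) and did not pass with the ligand (-0.29 ± 0.12, adjusted p 0.104). Fabp1 and Fabp2, fatty acid carriers, did not pass with the inhibitor (-0.03, adjusted p 0.823, and 0.10, adjusted p 0.456).

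Nr5a2 encodes LRH-1, a receptor tied to crypt cell renewal and to glucocorticoid synthesis in the gut. Of its 4 probe sets 1 lay under the filter on all arrays. The brightest read 637, 604 and 494 in untreated, 311.5, 389 and 310.5 in inhibitor and 418, 353 and 374 in ligand arrays. Untreated arrays lay above all treated ones, and the treated groups overlapped. Nr5a2 fell 1.68-fold with the inhibitor (-0.75 ± 0.11, adjusted p 0.000128) and 1.49-fold with the ligand (-0.57 ± 0.11, adjusted p 0.00257), and the treatments differed by 0.18 ± 0.11 (adjusted p 0.209, 95% interval -0.07 to 0.42).

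The other Nr5a2 probe sets did not pass with either treatment. The probe set annotated with a RefSeq transcript read 436, 235.5 and 232 in untreated, 337, 208 and 256 in inhibitor and 229, 199 and 224.5 in ligand arrays, with changes of -0.13 ± 0.21 (adjusted p 0.673) and -0.38 ± 0.21 (adjusted p 0.255). A further one gave -0.08 ± 0.21 (adjusted p 0.804) and -0.45 ± 0.21 (adjusted p 0.171). All 3 were thus negative with the ligand, and with their mean the inhibitor change was -0.32 (adjusted p 0.0634). The ligand change passed in 20 of 20 alternatives, that mean among them, at -0.69 to -0.47 (adjusted p 0.000688 to 0.0201).

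Of 7 tested genes listed as LRH-1 targets, 2 fell with the inhibitor (median -0.08), and 3 rose and 1 fell with the ligand (median 0.37). Among all genes 23.9% fell with the inhibitor, and 14.8% rose and 9.37% fell with the ligand. Cyp11a1, the side-chain cleaving enzyme that starts steroid synthesis, read 149.6, 158 and 172 in untreated, 121, 95.8 and 103 in inhibitor and 371, 372.5 and 360.0 in ligand arrays. Its groups did not overlap, with changes of -0.52 ± 0.11 and 1.13 ± 0.11 (adjusted p 0.00118 and 7.62e-06). Ccnd1, a cyclin of the G1 phase, fell with the inhibitor (-1.63 ± 0.06) and rose with the ligand (0.46 ± 0.06). Both had their highest signals in the ligand arrays, where the brightest Nr5a2 probe set lay below untreated. With the inhibitor both fell, as did that probe set. The part of Nr5a2 in these changes was not tested. Ccne1, a cyclin of the G1 to S step, also rose with the ligand (0.38 ± 0.10), and Scarb1, a lipoprotein receptor gene, fell (-0.23 ± 0.08).

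**Figure D4:**
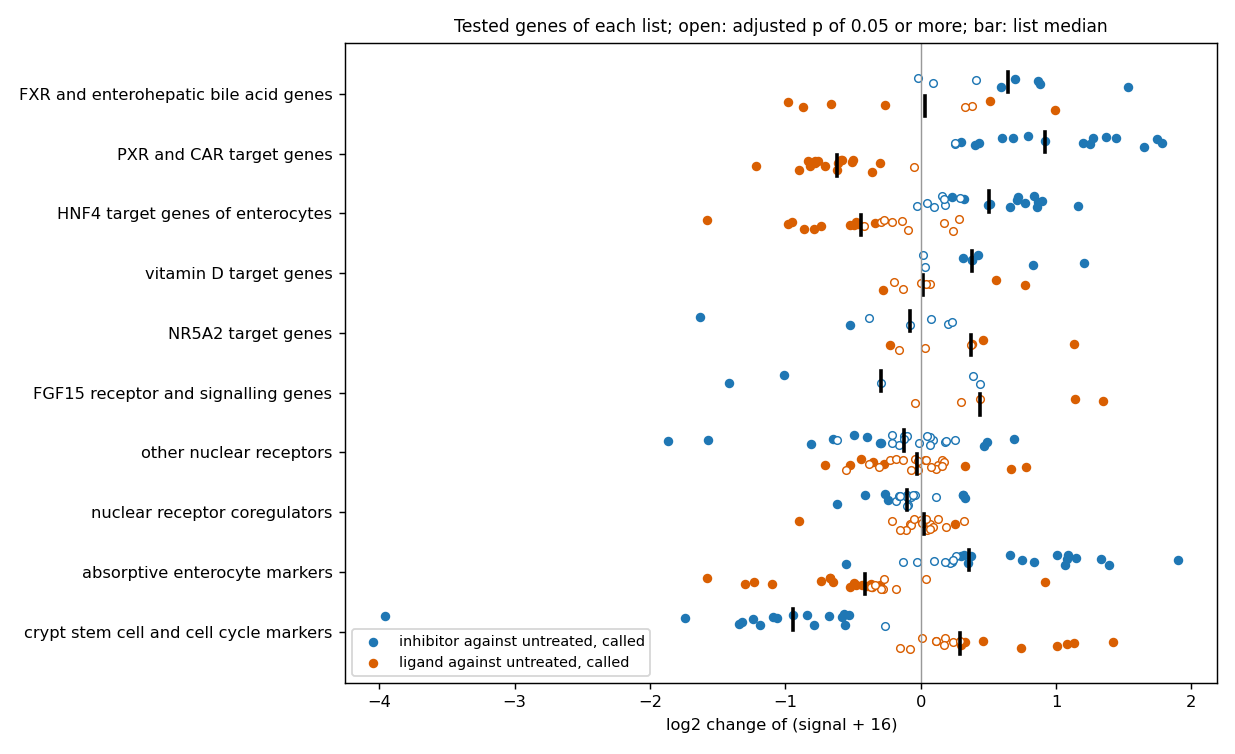
Each point is a tested gene of a list, placed by its change on the log2(signal + 16) axis with inhibitor (blue) or ligand (orange) against untreated; filled points were called and black bars are list medians. PXR and CAR targets lie right of 0 with the inhibitor (median 0.92) and left of it with the ligand (median -0.62), and crypt markers show the opposite order (-0.94 and 0.29).

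Among other nuclear receptor genes, 26 of 35 on the array were tested. With the inhibitor 3 rose and 8 fell (median -0.12), and with the ligand 3 rose and 5 fell (median -0.03). In either direction 45.1% of all genes were called with the inhibitor and 24.1% with the ligand. Median centring left 3 higher and 6 lower with the inhibitor, and 2 higher and 6 lower with the ligand. Esrrg, an orphan receptor of oxidative metabolism, read 476, 579 and 436 in untreated, 112, 122 and 136 in inhibitor and 387, 455 and 412 in ligand arrays. The inhibitor arrays lay far below the rest, with a change of -1.87 ± 0.11, beside -0.23 with the ligand (adjusted p 0.159). Nr1d2, a clock repressor, also fell with the inhibitor (-1.57 ± 0.09), as did Nr2f2, better known in mesenchyme (-0.81 ± 0.08). Nr3c2, the mineralocorticoid receptor gene, rose with it (0.69 ± 0.11), as did Esrra, a relative of Esrrg (0.47 ± 0.13). With the ligand Ppara, a receptor for fatty acids, fell (-0.71 ± 0.12, adjusted p 0.000894), as did Esrra (-0.44 ± 0.13) and the glucocorticoid receptor gene Nr3c1 (-0.35 ± 0.11, adjusted p 0.0301), and Nr4a1, an immediate early gene, rose (0.67 ± 0.15). Rora, a further orphan receptor, rose with the ligand as well (0.78 ± 0.18). Nr1h3, which encodes the oxysterol receptor LXR alpha, and Rara, a retinoic acid receptor gene, passed in no comparison (adjusted p 0.738 to 0.958 for Nr1h3 and 0.367 to 0.951 for Rara).

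Receptors act through coregulators, of which 18 were tested. With the inhibitor 3 rose and 4 fell, where 45.1% of all genes were called in either direction. With the ligand 1 rose and 1 fell, where 24.1% of all genes were called. The one that fell was Ppargc1a, a coactivator of HNF4 alpha and of mitochondrial genes. Ppargc1a fell with the ligand (-0.90 ± 0.10, adjusted p 2e-05) and with the inhibitor (-0.26 ± 0.10, adjusted p 0.0383), and the ligand arrays lay below the inhibitor arrays (-0.64 ± 0.10, adjusted p 6.76e-05). Prmt1, an arginine methyltransferase, and Tbl1x, a corepressor subunit, fell with the inhibitor (-0.62 ± 0.11 and -0.41 ± 0.06). Smarca4, a chromatin remodeller, rose with the ligand (0.25 ± 0.08, adjusted p 0.0406). Median centring left 0 coregulators higher and 2 lower with the ligand, and 3 higher and 2 lower with the inhibitor. Quantile normalization gave 2 higher and 1 lower with the ligand, and likewise 3 higher and 2 lower with the inhibitor.

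Genes whose signals followed a member most closely were ranked by Pearson r over the 9 arrays, as a description in which group differences set much of the likeness. For Hnf4g they were Ces2e (0.996), Clic5 (0.995) and Dhrs1 (0.991), and for Nr1h4 they were Rab4a (0.996), B4gat1 (0.995) and 4833407H14Rik (0.994). For Nr1i3 they were Mlxipl (0.975), Snx9 (0.973) and Tmem86a (0.973). Nr5a2 was followed by Plpp6 (0.974), Alppl2 (0.959) and Add3 (0.956), and Nr0b2 by Eif3a (0.949), Bcl7c (0.941) and Naa38 (0.938). For Nr1i2 the genes were Zhx1 (0.986), Aoc1 (0.976) and Atp6v1c1 (0.976), for Vdr they were Actr8 (0.990), Alppl2 (0.964) and Ndufaf6 (0.955), and for Rxra Tha1 (0.957), Tapbpl (0.955) and Tnfsf13os (0.941).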

How the data were processed

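RNA of 9 organoid samples was read on 9 arrays (3 per group). Per the labels' protocols RNA was extracted with the miRNeasy kit and labelled with MessageAmp Premier. MAS5, of unstated version, produced the signals per the submitters' processing notes. Each deposited value is thus a linear intensity of a probe set, used without a detection call, and the number of arrays limits the precision. The 2% trimmed mean was 350 on every array, so 1 factor per array sets the scale and differences in total RNA are removed. Array medians were 46.1 to 57.9.

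Of 45101 probe sets 34945 carried 1 gene symbol in the platform annotation, 932 several and 9160 none, and 64 controls were left out. Signals were turned into log2(signal + 16); 28.9% of values were at or below 16, so changes of dim genes are understated. The filter kept probe sets with 1 symbol that exceeded the 40th percentile of the array (25.9 to 32, the filter level) on at least 3 arrays. The brightest represented its gene, and probe sets ending in _x_at only where no other existed. Tests used limma 3.58.1 (R 4.3.3) in 1 model over 9 arrays (6 residual degrees of freedom, intensity trend, 2-sided, Benjamini-Hochberg over 12941 genes). Single probe sets were fitted in a second run, adjusted over 23887. The fit was tested on simulated data. No list was tested as a set. The members, the 17 gene lists and the alternatives were chosen with earlier results of these data known. The rule for names takes all members, up to 4 called genes with the smallest p per list and comparison (6 for other nuclear receptors), fixed genes of each pathway and the 3 genes most like each called member; from these the text takes examples. Abcb1b, Fabp1, Fabp2 and marker examples were chosen after their values were seen. Promoter windows come from RefSeq (GRCm38.p6).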

Additional observations from a re-analysis of the deposited data

How the results depend on the processing

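Each change of the 9 tested members was recomputed under 20 alternatives: offsets of 1 and 64, no filter, the 60th percentile, quantile normalization, median centring, no intensity trend, the 2-group fit, the replicate block, the mean of probe sets, every probe set, and each of the 9 arrays left out. Nr0b2 has 19, since the 60th percentile removed it. Of 27 member results 18 kept their call under all of these; the calls that did not are given with their genes. Members called numbered 4 to 6 for inhibitor against untreated, 5 to 6 for ligand against untreated and 4 to 6 for ligand against inhibitor. With no filter Fgf15 was tested as well, and it was not called. Genes called, 5837, 3123 and 7186, ranged over 5068 to 6302, 2242 to 3152 and 6515 to 7164 when 1 array was left out. With every probe set tested they were 9040 for inhibitor against untreated and 11806 for ligand against inhibitor, out of 23887 features in place of 12941. Correlations of deviations over genes were -0.08 to 0.07 for same-numbered arrays and -0.08 to 0.09 for the others. The own number came best in 4 of 9 cases. No pairing by number was thus seen, which does not show that same-numbered arrays were prepared apart. With the replicate block 5759, 3007 and 7152 genes were called and no member's call changed. Signal over background limits Fgf15, Slc10a2, Cyp24a1 and Nr0b2.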
